A study of Macaca mulatta with 24 samples.

Results

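The comparison described here set the NAcc (nucleus accumbens core) transcriptome of all 16 chronically drinking rhesus macaques against that of the 8 alcohol-free controls, out of 24 animals in all. Animals were placed by their labelled consumption group alone, with LD, HD and VHD animals pooled as drinkers and Control animals as controls. Of the 17208 genes listed, 9197 were tested, namely those that averaged 10 TPM or more over the 24 animals (TPM is a gene's share of all transcripts, corrected for length). Values were compared as log2(TPM + 1), so each difference below is on that scale and understates the change of low genes.

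The NAcc is a ventral striatal region in which most neurons are GABAergic projection neurons that receive dopamine input and express dopamine receptors, DARPP-32 and opioid or tachykinin peptides. Ethanol acts on these neurons through ion channels and receptors, and it also reaches oligodendrocytes, astrocytes, microglia and the cells of blood vessels, which shape their form with actin and the proteins that tie actin to the membrane. A dissected block of tissue reports the sum of all these cells.

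Drinkers were adult males that had been led to drink 4% (w/v) ethanol with scheduled food pellets and then had 22 h a day of free choice between ethanol and water for 12 months, with tissue taken without a period of abstinence. Controls lived in the same rooms and went through the same schedule with water on both spouts and a 10% maltose dextrin solution to match calories. The 8 LD* animals all carried the label LD and took 1.58 ± 0.53 g/kg of ethanol a day (SD, n = 8), from 0.47 to 2.07. The 8 HD* animals, 4 labelled HD and 4 labelled VHD, took 3.14 ± 0.33 g/kg (SD, n = 8), from 2.74 to 3.78. The categories were not assigned: animals sorted themselves by how much they drank, and each animal gave 1 library. By the study's description a pair of LD* animals was older than the rest.

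The animals came from 4 cohorts, and the groups were not spread evenly over them. Cohort 4 held 2 LD* animals and no controls. The drinkers of cohort 5 were 4 HD* animals, set against 3 controls. In cohort 7a there were 4 HD* and 3 LD* animals beside 2 controls. The drinkers of cohort 7b were 3 LD* animals, again beside 3 controls. Cohort and amount drunk therefore cannot be told apart in cohorts 5 and 7b, where the drinkers were all HD* or all LD*.

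One control library stood apart and touches many of the results. Control 6, from cohort 7b, had a median Pearson r across genes of 0.878 with the other libraries, which lay between 0.930 and 0.978. The defining markers of striatal projection neurons were low in it: PPP1R1B (DARPP-32) stood at 304 TPM against 1051 to 3926 in the other 23 animals, DRD1 at 8.14 against 53.4 to 274, and ADORA2A at 12.5 against 117 to 489. GFAP, the astrocyte filament protein, was at 6255 TPM in Control 6 and at most 4037 elsewhere. The labelled tissue thus matched its defining markers in 23 animals and less so in Control 6, and a number of the values below are also given without that animal. Control 8, of cohort 7a, was next lowest, with striatal projection neuron markers summing to 3876 TPM against 1073 in Control 6. VHD 4 had the lowest library scaling factor, 0.706, and VHD 3, LD 5 and Control 8 lay between 0.824 and 0.853, where the other animals lay between 0.942 and 1.09.

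No gene passed an adjusted p of 0.05 in drinkers against controls (0 of 9197, limma with Benjamini-Hochberg adjustment, smallest adjusted p 0.996). An unadjusted p under 0.05 was reached by 312 genes, 3.39% of those tested, which is below the 5% that the threshold alone would give. Some other settings, given near the end, went above 5%. Of these, 281 genes (3.06%) were lower in drinkers and 31 (0.337%) were higher. Over all genes the median difference was −0.05, with 3120 genes higher and 6077 lower. The imbalance depended on scaling: with TMM (trimmed mean of M-values) library factors 165 genes were lower and 96 higher, and with centring on each animal's median 124 were lower and 133 higher. Under those scalings the median over all genes was 0.01 and 0.02. Without Control 6 the count was 191, with 164 lower and 27 higher.

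**Figure D1:**
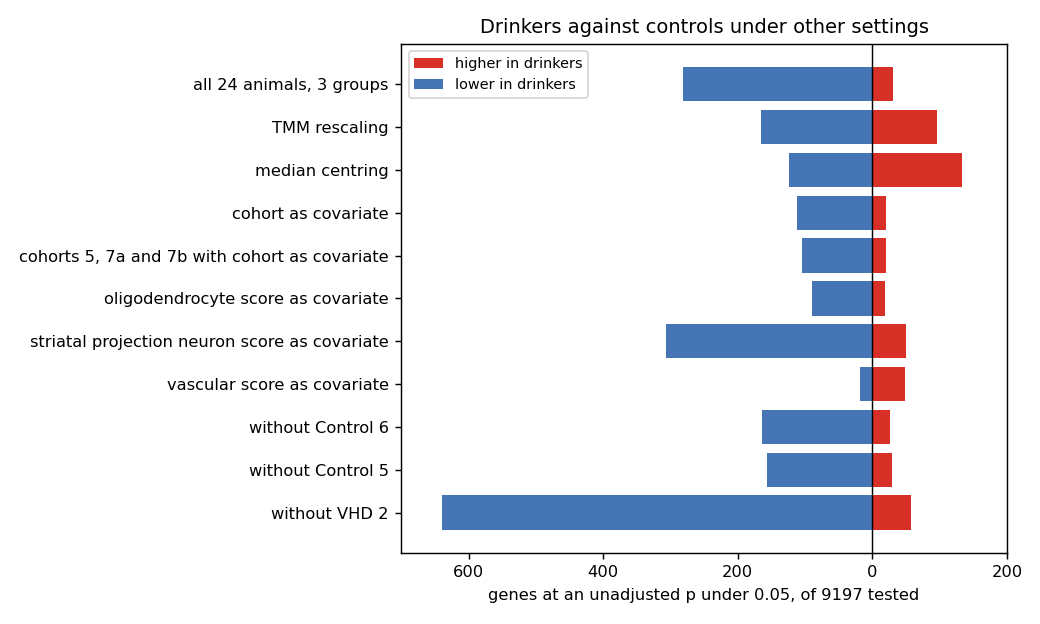
Numbers of genes at an unadjusted limma p under 0.05 in drinkers against controls, lower to the left and higher to the right, under 11 settings. With all 24 animals 281 were lower and 31 higher, the vascular marker score as covariate left 18 lower and 48 higher, and leaving out VHD 2 gave 697 in all.

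No gene passed when the drinkers were divided either. LD* against controls gave 0 adjusted calls and 164 unadjusted ones (1.78%, of which 1.53% lower and 0.250% higher, smallest adjusted p 1.00 in limma). HD* against controls gave 0 adjusted and 357 unadjusted calls (3.88%, of which 3.45% lower and 0.435% higher, smallest adjusted p 0.806 in limma), and HD* against LD* gave 0 and 67 (0.728%, of which 0.489% lower and 0.239% higher in HD*, smallest adjusted p 0.914 in limma). The direction of these calls also depended on scaling. For LD* 110 were lower and 73 higher under TMM, 95 and 92 under median centring, and 36 and 150 with a vascular marker score, described later, as covariate. For HD* 148 were lower and 135 higher under TMM, 95 and 178 under median centring, and 14 and 13 with that score. For HD* against LD* 42 were lower and 66 higher under TMM, 32 and 71 under median centring, and 207 and 50 with that score. Cohort as covariate gave 348 lower and 83 higher for HD* against LD*, in place of 67 in all. With cohort, LD* against controls gave 127 lower and 25 higher, and HD* against controls 209 and 23. Adjusted calls stayed at 0 in each of these fits.

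Single animals moved these counts by over 1.5 times. The LD* count was 89 without LD 7, 100 without Control 6, 108 without LD 8, 300 without LD 5 and 326 without LD 4. The HD* count was 129 without VHD 4, 180 without Control 5, 187 without VHD 3, 226 without VHD 1, 732 without Control 8 and 1145 without VHD 2, and it was 263 without Control 6. The count for HD* against LD* was 32 without VHD 4, 36 without LD 2, 44 without LD 4 and also without VHD 3, 105 without LD 6, 111 without HD 2, 120 without HD 3, 301 without VHD 2 and 356 without LD 5.

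In none of the 9197 genes did the 16 drinkers and the 8 controls fail to overlap. The standard error of a difference had a median of 0.13 over genes. Its 95% interval lay within 1 log2 unit of 0 on both sides for 9001 genes (97.9%) and within 0.5 for 6940 genes (75.5%), so a difference of 1 log2 unit lay outside the interval for nearly all genes tested and smaller differences often did not. The difference exceeded 0.5 in size for 67 genes, of which 21 had an unadjusted p under 0.05.

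The 20 genes with the smallest p are described next; p chose them, so their values are a description. Their unadjusted p in limma ran from 0.000849 to 0.00653, and the adjusted p was 0.996 for each. All but 1 were lower in drinkers, and 18 were lower in drinkers of each of cohorts 5, 7a and 7b. First in the order was MSN, which encodes moesin, a protein that links cortical actin to the plasma membrane. MSN ranged from 67.6 to 91.6 TPM in controls (median 73.3), from 52.5 to 71.0 in LD* (median 61.7) and from 54.1 to 73.9 in HD* (median 60.0). Thus 13 of the 16 drinkers lay below the lowest control, although the groups overlapped. The difference was −0.27 (SE 0.071), and −0.23 without Control 6, the highest control.

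GSN encodes gelsolin, which severs and caps actin filaments. Its controls ranged from 91.3 to 260 TPM (median 141), LD* animals from 86.6 to 127 (median 96.4) and HD* animals from 102 to 127 (median 108). All 16 drinkers lay below the control median, but the 3 controls of cohort 5, at 91.3, 118 and 118 TPM, were among the drinkers' values. The difference of −0.45 (SE 0.12) was −0.32 without Control 6 at 260 TPM, and in cohort 5 it was 0.03.

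FMNL2, a formin that elongates actin filaments, ranged from 73.0 to 102 TPM in controls (median 79.5), 51.8 to 84.4 in LD* (median 61.9) and 45.4 to 84.8 in HD* (median 61.8). As for MSN, 13 drinkers lay below the lowest control, and the 3 that did not were LD 4 and LD 5 of cohort 7b and VHD 2 of cohort 5. The difference was −0.38 (SE 0.10). EPB41L2, a band 4.1 protein of the membrane skeleton, ranged from 119 to 141 TPM in controls (median 124), 81.8 to 132 in LD* (median 103) and 96.9 to 126 in HD* (median 104). Again 13 drinkers were below every control, and the difference was −0.27 (SE 0.080). Control 6 was the highest control for both, and without it the differences were −0.33 and −0.25.

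MYO6, a myosin that walks toward the minus end of actin, lay between 15.96 and 18.8 TPM in controls, 10.4 and 18.8 in LD* and 11.5 and 18.0 in HD* (difference −0.31, SE 0.097). WIPF1, which binds the actin nucleation factor WASP, lay between 24.5 and 62.5 TPM in controls, 14.8 and 49.6 in LD* and 19.9 and 35.0 in HD* (−0.57, SE 0.19). Both overlapped between groups, with 13 and 10 drinkers below the lowest control. AKAP13, an anchor of protein kinase A, differed by −0.32 (SE 0.097), with 11 drinkers below the lowest control of 10.1 TPM.

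TNFSF10 encodes TRAIL, a ligand of death receptors that interferons induce. It ranged from 18.2 to 32.4 TPM in controls (median 22.4), from 10.5 to 24.5 in LD* (median 12.3) and from 8.18 to 24.3 in HD* (median 21.3). Here LD* lay further from controls than HD* did: 7 of 8 LD* animals and 2 of 8 HD* animals were below the lowest control. The drinkers' difference was −0.63 (SE 0.17), with −0.83 in LD* and −0.44 in HD*, and HD* exceeded LD* by 0.40 (adjusted p 0.914 in limma). CRIP1, a small LIM-domain protein, showed the same order, with controls at 16.3 to 51.5 TPM, LD* at 10.8 to 23.2 and HD* at 13.8 to 27.7 (difference −0.58, SE 0.17).

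The smooth muscle genes TAGLN (transgelin) and MYL9 (a myosin light chain) were the pair among the 20 without an unadjusted p under 0.05 in both drinking groups. TAGLN ranged from 27.1 to 48.6 TPM in controls, 19.7 to 32.0 in LD* and 25.3 to 45.3 in HD*, and its difference was −0.58 in LD* and −0.27 in HD*. MYL9 ranged from 26.4 to 44.8 TPM in controls, 17.4 to 29.5 in LD* and 22.7 to 33.9 in HD*, with −0.43 in LD* and −0.16 in HD*. Values in HD* lay nearer to those of controls in both genes, and HD* exceeded LD* by 0.27 for MYL9 and by 0.30 for TAGLN (adjusted p 0.914 in limma for both).

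Several of the 20 are known from glial cells. GPR17, a receptor of cells on the way from precursor to oligodendrocyte, ranged from 26.2 to 52.9 TPM in controls (median 34.6), 22.5 to 36.2 in LD* (median 24.4) and 12.4 to 32.2 in HD* (median 25.2). In all, 15 of 16 drinkers were below the control median, and the difference was −0.47 (SE 0.14), −0.38 without Control 6. SLC4A4, a sodium bicarbonate cotransporter that is abundant in astrocytes, ranged from 49.7 to 83.6 TPM in controls, 38.9 to 58.8 in LD* and 26.9 to 81.2 in HD* (difference −0.43, SE 0.13). LIFR, the receptor chain for leukaemia inhibitory factor, ranged from 10.6 to 19.2 TPM in controls, 5.54 to 14.4 in LD* and 3.90 to 23.8 in HD*. For LIFR 13 drinkers were below the lowest control and VHD 2, at 23.8 TPM, was above the highest (difference −0.65, SE 0.20).

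The rest of the 20 had other roles. GPR137B, a lysosomal membrane protein, ranged from 60.5 to 78.3 TPM in controls (median 69.8), 44.0 to 66.1 in LD* and 36.5 to 68.2 in HD*, and all 16 drinkers lay below the control median (difference −0.33, SE 0.10). STXBP6, which binds SNARE proteins, differed by −0.60 (SE 0.20) and by −0.43, −0.45 and −0.47 in cohorts 5, 7a and 7b. SGPL1, the lyase that breaks down sphingosine 1-phosphate, differed by −0.26 (SE 0.086). NEK4, a protein kinase, differed by −0.37 (SE 0.12), and THEM4, a thioesterase, by −0.25 (SE 0.084), each with 11 drinkers below the lowest control.

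GCHFR was the only one of the 20 that was higher in drinkers. It encodes the feedback regulator of GTP cyclohydrolase I, the first enzyme in the synthesis of tetrahydrobiopterin, the cofactor of dopamine synthesis. Controls ranged from 30.6 to 96.8 TPM (median 66.2), LD* from 79.1 to 109 (median 93.5) and HD* from 54.7 to 136 (median 105). In all, 8 drinkers lay above the highest control and 15 above the control median. The difference was 0.55 (SE 0.16) and 0.40 without Control 6, the lowest control. It was 0.64 in cohort 7a and 0.95 in cohort 7b but −0.05 in cohort 5, where 3 of 4 HD* animals lay between 54.7 and 78.4 TPM against 70.5 to 96.8 in controls.

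**Figure D2:**
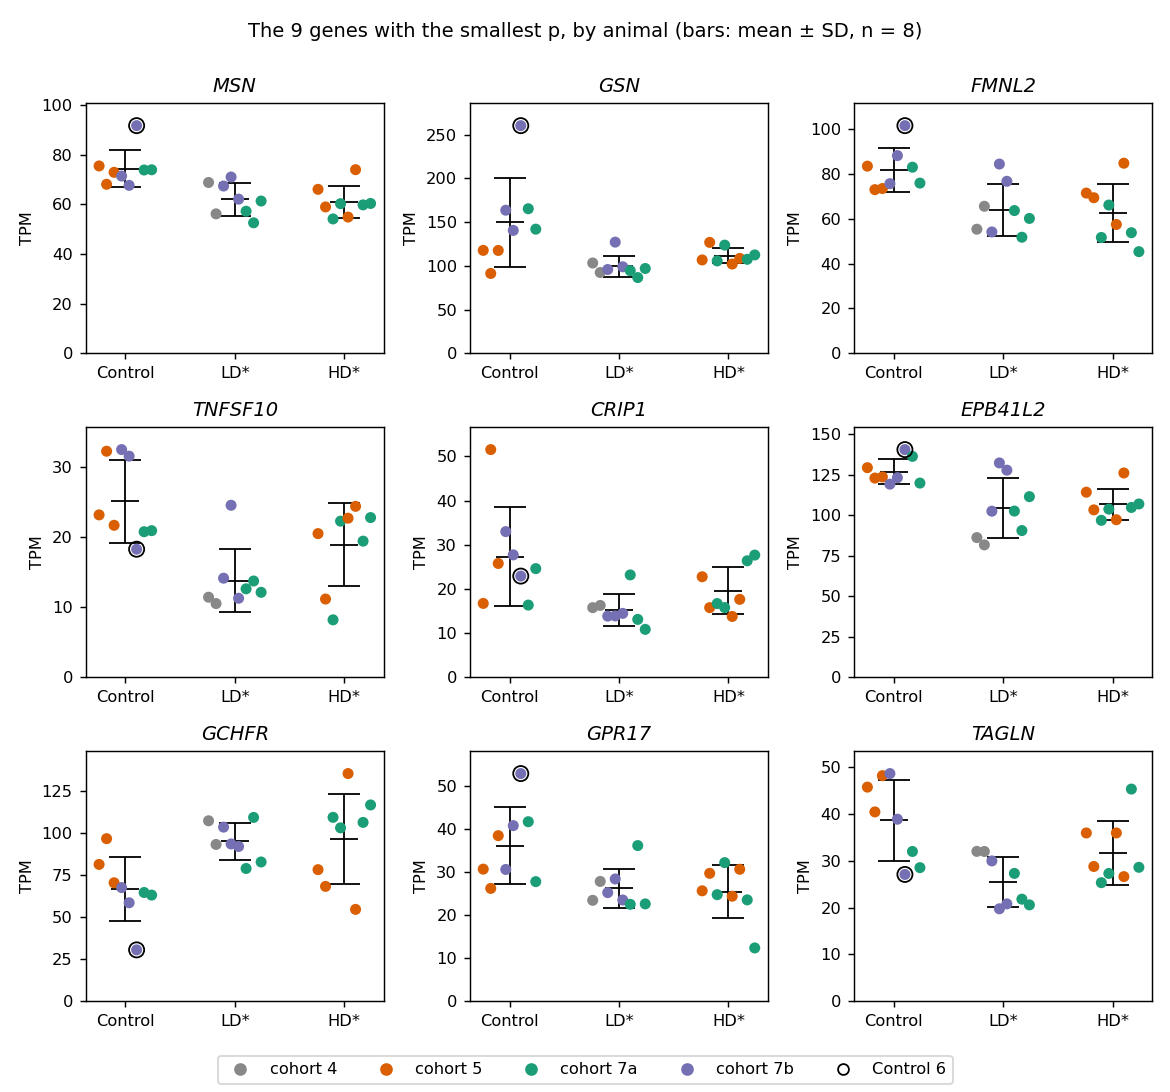
TPM in each of the 24 animals for the 9 genes with the smallest p, by group (x axis) and coloured by cohort, with the mean and SD of 8 animals as bars and Control 6 ringed. The groups overlap in every panel; 13 of 16 drinkers lie below the lowest control for MSN, FMNL2 and EPB41L2, and Control 6 is the highest control for MSN, GSN, FMNL2, EPB41L2 and GPR17 and the lowest for TNFSF10, GCHFR and TAGLN.

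A gene was counted as displaced alike when LD* and HD* each differed from controls in the same direction at an unadjusted p under 0.05. There were 50 such genes (0.544% of those tested), 46 lower (0.500%) and 4 higher (0.0435%). Their direction also depended on scaling. Under TMM there were 42 such genes, 27 lower and 15 higher, and under median centring 40, 19 lower and 21 higher. LD* and HD* were compared with the same 8 controls, so a control that lies apart moves both differences together, and the count is given as the rule fixes it. Of the 20 genes above, 18 were among the 50. HD* minus LD* ran from −0.15 to 0.40 over the 50 genes, and its smallest unadjusted p was 0.0576. Without Control 6 the count was 36 genes, of which 19 were among the original 50.

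The LD* and HD* values of the 15 such genes with the smallest larger p are given side by side. The rule asked for the same direction and a small p in both against the same controls, so how near the paired values lie is largely set by the choice and is read no further. MSN differed by −0.26 in LD* and −0.28 in HD*, FMNL2 by −0.36 and −0.40, AKAP13 by −0.31 and −0.32, and MYO6 by −0.32 and −0.30. LIFR, with the largest difference of the 15, gave −0.64 and −0.67, and GCHFR gave 0.56 and 0.53. GSN gave −0.53 in LD* and −0.36 in HD*. Beyond the 20 genes already described, QKI, an RNA-binding protein needed for myelination, gave −0.43 and −0.39, and SASH1, a scaffold of signalling at the membrane, gave −0.38 and −0.34.

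**Figure D3:**
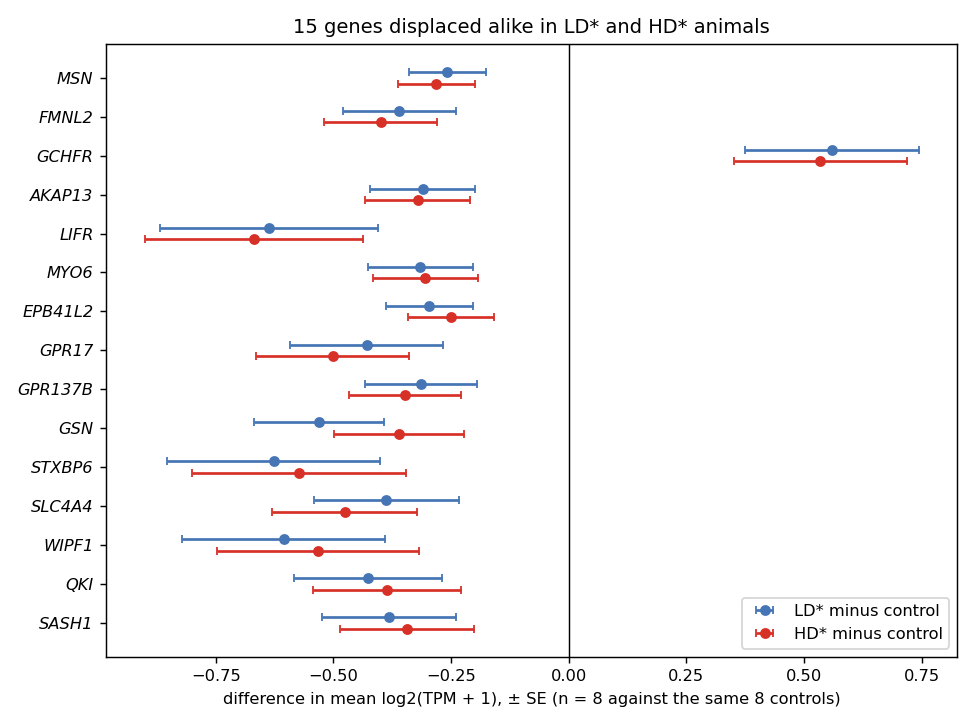
Difference from the same 8 controls in LD* (blue) and HD* (red) for the 15 genes with the smallest larger p of the pair, on the log2(TPM + 1) scale with the standard error. The bars of each pair overlap, with MSN at −0.26 and −0.28 and GSN at −0.53 and −0.36, and GCHFR alone lies to the right of 0, at 0.56 and 0.53.

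The other genes displaced alike had diverse roles. CHCHD6, a protein of mitochondrial cristae, FKBP1B, which binds calcium release channels, and HILPDA, a lipid droplet protein, were the remaining 3 that were higher, by 0.19, 0.21 and 0.27. Among those lower were TLN1 (talin, which couples integrins to actin) at −0.25, SOX9 (a transcription factor of astrocytes) at −0.30 and ALDH3A2 (a fatty aldehyde dehydrogenase) at −0.29. The 46 lower genes differed by −0.65 to −0.19, with a median of −0.32.

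Cohorts 5, 7a and 7b share no animals, so differences within them rest on separate controls. All 46 genes were lower in drinkers of cohort 7a and all 46 in cohort 7b, whereas 30 were lower in cohort 5. Over all genes the shares lower in drinkers were 51.6%, 66.1% and 62.5%, respectively. Of the 46, 30 (65.2%) were lower in all 3 cohorts, as were 19.8% of all genes. Because these animals also chose the 46 genes, the shares describe how the difference was spread and are not a separate test of it. The median difference of the 46 was −0.44 in cohort 7a, −0.35 in cohort 7b and −0.06 in cohort 5. Within cohort 7a, which held both kinds of drinker, the median was −0.38 in LD* and −0.48 in HD*.

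Individual genes differed in how far they followed this pattern. MSN was lower in all 3 cohorts, by −0.19, −0.35 and −0.19 in cohorts 5, 7a and 7b, and so was AKAP13, by −0.28, −0.28 and −0.34. LIFR differed by −0.12 in cohort 5 against −0.86 and −0.68, and WIPF1 by −0.29, −0.89 and −0.26. QKI was at 0.00 in cohort 5 and SASH1 at 0.17, against −0.59 and −0.75 in cohort 7a. With cohort as a covariate the number of genes displaced alike was 10, 7 of them among the 50, and the drinkers' unadjusted count was 133 in place of 312. All 20 leading genes kept their direction and an unadjusted p under 0.05 with that covariate, the largest being 0.0223. Under TMM 18 of the 20 kept such a p (largest 0.0692) and under median centring 17 did (largest 0.0836), all with the same direction. Because p chose these 20 genes in the same animals, the refits describe them and are not a separate test.

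**Figure D4:**
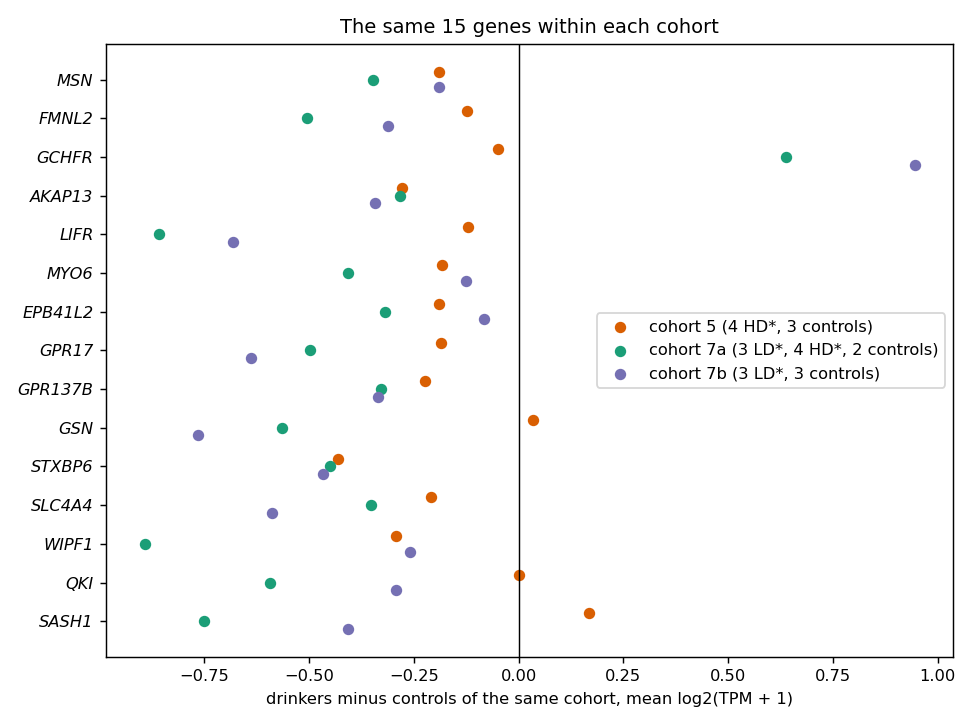
Mean log2(TPM + 1) of drinkers minus that of controls within cohort 5 (orange), 7a (green) and 7b (purple) for the 15 genes displaced alike, with no error drawn because a cohort held 2 or 3 controls. Points of cohort 5 lie nearest to 0 for most genes, with SASH1 at 0.17 and GSN at 0.03, while those of cohorts 7a and 7b lie to the left for every gene except GCHFR.

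Genes whose drinkers and controls did not overlap were counted within each cohort. They numbered 288 in cohort 5 (3.13%, with drinkers below in 2.03%), 366 in cohort 7a (3.98%) and 556 in cohort 7b (6.05%, with drinkers below in 5.33%). No gene was separated in the same direction in all 3. Between cohorts 5 and 7b, 1 gene (0.0109%) was separated in the same direction and 13 in opposite directions. That gene was SLC15A4, a lysosomal transporter of peptides and histidine, with HD* at 12.3, 14.6, 15.6 and 15.7 TPM against controls at 15.9, 18.1 and 19.3 in cohort 5, and LD* at 10.9, 16.1 and 18.2 against controls at 18.5, 19.6 and 32.9 in cohort 7b. The nearest drinker and control were thus close in both cohorts, and in cohort 7a the groups overlapped. Under TMM rescaling and under median centring the count was 2, none of them lower.

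Across all genes, the cohort differences were related in opposite ways, given here as a description over 9197 genes that are not independent. Pearson's r was −0.446 between cohorts 5 and 7b, −0.291 between cohorts 5 and 7a and 0.304 between cohorts 7a and 7b. Without Control 6, r was −0.0784 between cohorts 5 and 7b and −0.102 between cohorts 7a and 7b. The test of drinking by cohort in limma gave 0 adjusted calls and 177 genes at an unadjusted p under 0.05 (1.92%). The 3 genes with the smallest p were RANBP3L, SLC44A2 and GJB6. RANBP3L, a nuclear export factor, differed by 0.18 in cohort 5, −1.17 in cohort 7a and 0.34 in cohort 7b. SLC44A2, a choline transporter-like protein, differed by 0.19, −0.16 and −0.70, and GJB6, the astrocyte gap junction protein connexin 30, by 0.42, −0.61 and −0.87.

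Gene lists were then described by how many of their tested members were higher or lower in drinkers and by their median, beside −0.05 for all genes, of which 6077 of 9197 were lower, 3.06% lower and 0.337% higher at an unadjusted p under 0.05. No member of any list passed the adjusted threshold in limma. In tissue of this kind, fewer cells of a type and less RNA per cell cannot be told apart. Vascular lists were low in drinkers: 7 of 9 smooth muscle and pericyte genes and 8 of 8 endothelial genes were lower, with medians of −0.17 and −0.16 and with 2 and 1 members lower at an unadjusted p under 0.05 (3.06% of all genes). CD34, a surface protein of endothelium, ranged from 11.2 to 16.7 TPM in controls and from 8.11 to 15.8 in drinkers (difference −0.22, SE 0.097). NOTCH3, the Notch receptor of mural cells, differed by −0.18 (SE 0.11), and ENG (endoglin) by −0.21 (SE 0.12). Without Control 6 the medians were −0.18 and −0.16. With all animals, the smooth muscle and pericyte median was −0.17 in LD* and −0.13 in HD*. The endothelial median was −0.26 in LD* and −0.090 in HD*. Over all genes the medians were −0.004 in LD* and −0.095 in HD*, so endothelial genes in HD* were no lower than genes in general.

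A score of the vascular markers, the mean of their centred log2 values, lay between 0.015 and 0.28 in controls, −0.37 and 0.11 in LD* and −0.16 and 0.089 in HD*. The summed level of the smooth muscle and pericyte list was 274 to 353 TPM in controls (median 308), 217 to 330 in LD* (median 259) and 238 to 337 in HD* (median 288). Of the defining vascular markers PECAM1 was not analysed here, and ACTA2 and MYH11 averaged only 7.77 and 1.77 TPM. With the score as a covariate, 66 genes had an unadjusted p under 0.05, 48 higher and 18 lower, and 6 were displaced alike. All 20 leading genes kept their direction, with a median of 0.667 of their original difference, and 5 kept an unadjusted p under 0.05: MSN (−0.20), GSN (−0.33), EPB41L2 (−0.28), WIPF1 (−0.65) and CRIP1 (−0.44). The score holds TAGLN and MYL9 themselves, and the part of vascular cells in the other differences was not tested.

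In the list of actin-binding and membrane-cytoskeleton genes, which was drawn up with MSN already known, 27 of 34 were lower, with a median of −0.21 and 6 lower and 1 higher at an unadjusted p under 0.05, against 3.06% and 0.337% of all genes. The differences ran from −0.65 to 0.38. Under TMM rescaling 23 were lower, without Control 6 the median was −0.13 with 3 lower at that p, and in cohort 5 the median was 0.05. Extracellular matrix and TGF-beta genes had a median of −0.14, with 14 of 17 lower. TIMP3, an inhibitor of matrix proteases, ranged from 106 to 212 TPM in controls and from 87.2 to 159 in drinkers (−0.29, SE 0.12), and differed by 0.23 in cohort 5.

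Interferon-stimulated genes were low in drinkers, with 17 of 18 lower, a median of −0.26 and 4 lower at an unadjusted p under 0.05, against 3.06% of all genes. Beside TNFSF10, IFITM1, a membrane protein that blocks virus entry, ranged from 32.0 to 44.3 TPM in controls and from 17.2 to 52.5 in drinkers, and differed by −0.34 (SE 0.13). TRIM22, an interferon-induced ubiquitin ligase, differed by −0.33 (SE 0.15). The median was 0.04 in cohort 5, −0.31 in cohort 7a and −0.40 in cohort 7b. Without Control 6 it was −0.17, with 17 genes still lower, and with the vascular score as covariate it was 0.03, with 11 genes higher. Death receptor and NF-kappaB genes, a list that also holds TNFSF10, had 14 of 17 lower (median −0.14). Under median centring 11 of the 17 were lower (median −0.07). CFLAR, the inhibitor of death receptor signalling c-FLIP, had means of 14.7, 11.8 and 9.05 TPM in controls, LD* and HD* (−0.45, SE 0.15), with −0.94 in cohort 5 and −0.08 in cohort 7b.

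Glial markers were also low. All 15 oligodendrocyte genes were lower, with a median of −0.41 and none at an unadjusted p under 0.05. The median of these genes was −0.21 without Control 6, and it was 0.12 in cohort 5 and −0.49 in cohort 7a. In cohort 7b it was −0.28, but without Control 6 it was 0.087 there, with 5 of the 15 lower. All 12 astrocyte genes were lower (median −0.16, −0.11 without Control 6, 0.23 in cohort 5). AQP4, the water channel of astrocyte endfeet, ranged from 180 to 361 TPM in controls and from 120 to 419 in drinkers (−0.42, SE 0.18). Of the microglia and macrophage genes 11 of 12 were lower (median −0.15), but none of the 12 was lower in cohort 5, where the median was 0.32. Over all cohorts their median was −0.18 in LD* and −0.052 in HD*, beside −0.004 and −0.095 for all genes. The summed oligodendrocyte markers ran from 3242 to 11655 TPM in controls, 2112 to 7802 in LD* and 2891 to 5990 in HD*. Their part in the differences of other genes was not tested. With their score as covariate, 109 genes in place of 312 had an unadjusted limma p under 0.05, and 21 in place of 50 were displaced alike. The 20 leading genes kept such a p, with a median of 0.80 of their original difference. Because p chose these 20 in the same animals, that is a description and not a test.

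The neuronal lists turned on Control 6. All 17 striatal projection neuron genes were higher in drinkers, with a median of 0.42, but without Control 6 7 were higher and 10 lower, with a median of −0.02. In cohort 5, which did not hold that animal, all 17 were lower, with a median of −0.34, and in cohort 7a all 17 were higher, with a median of 0.48. The 2 controls of cohort 7a lay far apart on the summed list, at 13052 TPM in Control 7 and 3876 TPM in Control 8. How far the 0.48 rests on Control 8 was not tested. PDYN, the precursor of dynorphin, ranged from 35.0 to 858 TPM in controls and from 289 to 966 in drinkers, and its difference of 0.62 (SE 0.41) was 0.15 without Control 6. TAC1, the precursor of substance P, went from 0.38 to 0.02 and the dopamine receptor DRD2 from 0.44 to 0.17. The dopamine and opioid signalling list had 8 of 12 higher (median 0.34, 0.04 without Control 6), and the immediate early genes 13 of 18 higher (median 0.22, 0.06 without Control 6).

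**Figure D5:**
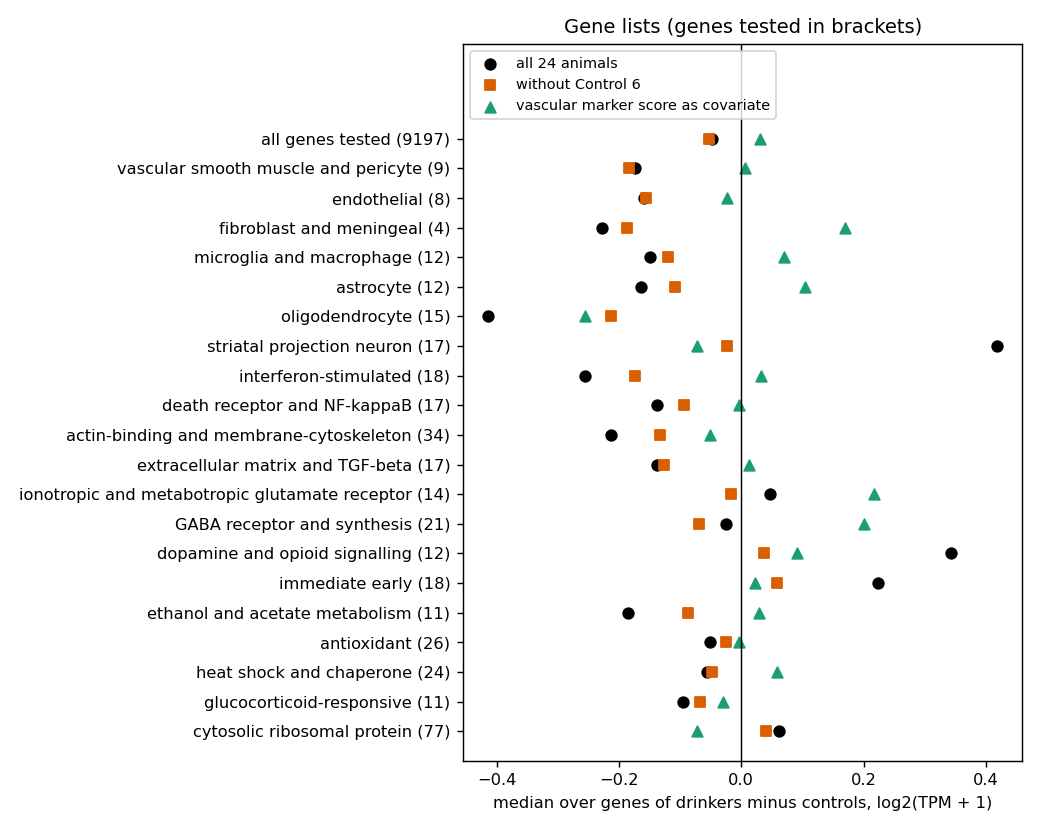
Median difference between drinkers and controls over the tested genes of each list on the log2(TPM + 1) scale, with all 24 animals (black), without Control 6 (orange) and with the vascular marker score as covariate (green). The striatal projection neuron median went from 0.42 to −0.02 without Control 6 while the endothelial median stayed at −0.16, and all genes together lay at −0.05. The score is made of the smooth muscle and pericyte and the endothelial genes, so the green points of those lists are largely set by it.

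The direction of the receptor lists depended on the setting, and neither had a member at an unadjusted p under 0.05 with all animals. Glutamate receptor genes were 7 higher and 7 lower of 14 (median 0.05), and the median was −0.02 without Control 6. Of these 14, 11 were higher under TMM rescaling, 12 under median centring and 12 with the vascular score. GABA receptor and synthesis genes were 8 higher and 13 lower of 21 (median −0.02), and 5 higher and 16 lower without Control 6 (median −0.07). Of these 21, 11 were higher under TMM rescaling and under median centring, and 20 with the vascular score. GRIN1, the obligatory NMDA receptor subunit, differed by 0.27 (SE 0.22), and GABRD, a GABA-A subunit of extrasynaptic receptors, by 0.60 (SE 0.36) and by 0.18 without Control 6. Genes of ethanol and acetate metabolism had 9 of 11 lower (median −0.18, −0.09 without Control 6). In that list ALDH3A2 ranged from 35.3 to 53.4 TPM in controls and from 27.2 to 52.8 in drinkers (−0.29, SE 0.10), while ACSS1, a mitochondrial acetyl-CoA synthetase, differed by −0.22 (SE 0.12) and CAT, catalase, by −0.26 (SE 0.18).

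Antioxidant genes had a median of −0.05, with 18 of 26 lower, or 13 of 26 under TMM rescaling. NQO1, a quinone reductase, ranged from 22.5 to 54.7 TPM in controls and from 11.3 to 61.9 in drinkers, with VHD 2 highest (−0.50, SE 0.22), and NFE2L2, the transcription factor that controls it, differed by −0.31 (SE 0.14). Heat shock and chaperone genes had 20 of 24 lower (median −0.06) but 12 of 24 under TMM rescaling, and ST13, an HSP70 cofactor, differed by −0.20 (SE 0.090). Glucocorticoid-responsive genes had 9 of 11 lower (median −0.10) with NR3C1, the receptor itself, at −0.21 (SE 0.13). Cytosolic ribosomal protein genes had 73 of 77 higher, with a median of only 0.06. This median was −0.01 in LD* and 0.12 in HD*, and without Control 6 and VHD 4 the list had 31 higher and 46 lower, with a median of −0.01. In cohort 7a 64 of the 77 were lower, against 2 in cohort 5 and 3 in cohort 7b. With the vascular score as covariate 68 of the 77 were lower.

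Few markers of tissue next to the NAcc were tested. The fibroblast and meningeal list had 4 tested members, DCN, PDGFRA, FBLN1 and IGFBP2, all lower, with medians of −0.05 in LD* and −0.34 in HD*. Its collagen genes COL1A1, COL1A2 and COL3A1 averaged 0.834, 2.08 and 1.30 TPM and were not tested. The 4 members are therefore not read as a measure of such tissue. In cohort 7b, 1 of the 4 was lower. Summed over the list, LD 2, Control 2, LD 4, LD 6 and Control 8 stood at 161, 171, 202, 225 and 221 TPM. The other animals lay between 70.0 (LD 5) and 126 TPM (HD 2). The choroid plexus list had 1 tested member, AQP1, at 0.07 (SE 0.39). TTR, the defining choroid plexus transcript, ranged from 0.285 to 26.9 TPM over all animals. Of the red blood cell genes none was tested, since HBB ranged from 0.165 to 22.4 TPM and ALAS2 did not exceed 0.0305 TPM.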

How the data were processed

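NAcc core tissue of 24 animals gave 1 RNA-Seq library each. The authors made polyA-selected libraries, aligned reads to the MacaM macaque assembly with STAR 2.5.2b and counted them on genes with HTSeq 0.6.1p1 (versions from the submitters' processing notes). The deposited table is named as normalized counts. Its values were read as TPM made by the authors, since every column sums to between 999998 and 1000000 and low values are not whole multiples of 1 step. The gene lengths and the conversion are not given in the sources used here. TPM hold no depth per animal, so no counting error is given, and each value is a share of a fixed total. Of the 17208 symbols, 27 had been turned into dates and were left as they stood.

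Values were taken as log2(TPM + 1) and genes with a mean under 10 TPM were left out. The 9197 others were fitted with limma 3.58.1 in R 4.3.3 (trended empirical Bayes) in 1 model of 3 groups, Control, LD* and HD*. Drinkers against controls was the mean of LD* and HD* minus Control, with Benjamini-Hochberg adjustment over all genes tested and a threshold of 0.05. Drinking by cohort was an F test over 22 animals of cohorts 5, 7a and 7b. Marker scores are means of centred log2 values. The fit was tested on simulated data. Plots were drawn with matplotlib 3.10.9 in Python 3.11.15.

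Groups, cohorts and intakes came from the sample labels. The genes named are the 20 with the smallest p, the 15 displaced alike with the smallest larger p, 3 per list and 3 for the interaction, plus defining markers, of which 1 is not reported here. The genes NGFR, C3orf22 and OBP2B and those displaced alike beyond the 15 were singled out after their values were seen. The comparison, the rule and the 22 gene lists were chosen with earlier results of these data known. Alternatives were pseudocounts of 0.1 and 8, filters of 1 and 100 TPM or none, TMM (own code, trimming 30% of M and 5% of A), median centring, cohort, marker scores, array weights, 2 groups and leaving out each animal. Leaving out Control 6 and VHD 4 together, the list counts without them and the within-cohort relations without Control 6 were added after seeing the data.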

Additional observations from a re-analysis of the deposited data

Results flagged for a closer look

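Each of the 3 groups of 8 was checked gene by gene, over the named genes, for an animal far from the rest of its group, by the gap to its nearest neighbour relative to the group's range (Dixon's test). This marked 35 of 237 groups (14.8%), where chance alone marks about 1 in 20, and the genes are not independent of each other.

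Most of the marks fell on few animals. VHD 2, of cohort 5, was marked as the highest HD* animal for 12 genes. It stood at 14.1 TPM for AKAP13 against 8.19 to 10.3 in the other HD* animals, and at 23.8 TPM for LIFR against 3.90 to 9.74. Its level was 419 TPM for AQP4, 24.5 for TRIM22, 159 for TIMP3, 226 for SLC6A11, 52.8 for ALDH3A2 and 44.4 for CAT. It also had 61.9 TPM of NQO1, 328 of PRDX6, 18.0 of BAG3 and 85.9 of TSC22D3. Without VHD 2 the drinkers' unadjusted count was 697 and the number of genes displaced alike was 124.

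Control 6 was apart from the other controls for 9 genes. It was highest for MSN (91.6 TPM), GSN (260 TPM, against 91.3 to 165), QKI (86.1), OLIG1 (310, against 95.5 to 169), TLN1 (75.6), SLC6A11 (331), SLC44A2 (184) and SLC15A4 (32.9). It was lowest for GABRA5, at 45.0 TPM against 284 to 488 in the other controls. Control 2 was apart at 51.5 TPM for CRIP1 and 42.5 TPM for DCN.

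Among LD* animals, LD 4 stood high at 127 TPM for GSN, 24.5 TPM for TNFSF10, 56.5 TPM for UGT8 and 38.1 TPM for CAT. LD 2 stood high at 75.9 TPM for SLC6A11 and 111 TPM for GJB6. Single marks fell on LD 1 for NR4A1 (84.1 TPM), LD 6 for CRIP1 (23.2 TPM) and LD 7 for GPR17 (36.2 TPM). LD 5 was low for ENG (10.2 TPM) and high for RPL26L1 (181 TPM), and VHD 4 was low for GPR17 (12.4 TPM).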

How the results depend on the processing

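The adjusted count stayed at 0 in drinkers against controls under every alternative run, so only unadjusted counts and values can move. The drinkers' unadjusted count of 312 of 9197 genes was 1045 of 17208 with no filter, 735 of 13637 at a mean of at least 1 TPM and 31 of 1925 at 100 TPM. Of the same 9197 genes it was 133 with cohort as covariate and 125 with that covariate in cohorts 5, 7a and 7b. It was 109 with the oligodendrocyte score, 66 with the vascular score, 1017 with array weights and 147 without Control 6 and VHD 4. Leaving out 1 animal gave 187 (Control 5) to 697 (VHD 2), with 191 without Control 6, 488 without Control 8 and 513 without LD 4. The share of genes tested was above 5% with no filter, at 1 TPM, with array weights, and without VHD 2, LD 4 or Control 8. The 50 genes displaced alike were 241, 151 and 6 under the same filters, 10 with cohort, 8 with cohort in the 3 cohorts that held controls, 21 with the oligodendrocyte score, 6 with the vascular score, 281 with array weights and 31 without Control 6 and VHD 4. Leaving out 1 animal gave 26 (LD 7) to 124 (VHD 2), with 27 without Control 5, 30 without HD 3, 31 without LD 3, 32 without LD 1, 79 without Control 3, 83 without Control 8 and 113 without LD 4. TMM and median centring kept 12 and 11 of the 50. The cause of these shifts was not tested beyond the fewer or more genes and animals entered. With the vascular score the sign turned for MFSD2A (0.12), IGFBP2 (0.25), DCN (0.27), CX3CR1 (0.044), CSF1R (0.087), SLC1A3 (0.083), DRD2 (−0.080), SMAD2 (0.019), LAMB2 (0.11), SLC6A11 (0.24), CAT (0.028), NQO1 (0.015), TSC22D3 (0.075), GJB6 (0.013) and AQP1 (−0.57). MFSD2A is itself part of that score, so its turn is not read. With array weights it turned for IGFBP2 (0.0044), AQP1 (−0.086), RPL5 (−0.049) and RPL4 (−0.0025). AQP1 was also −0.17 with cohort, in all cohorts and in those 3, −0.33 with the oligodendrocyte and −0.16 with the neuron score. Leaving out animals, AQP1 ran from −0.31 (Control 6 and VHD 4) to 0.23, DCN from −0.22 to 0.0065 and DDIT4 from −0.22 to 0.0070. The gene separated alike in cohorts 5 and 7b became 2 genes under TMM and 2 under median centring. No paired analysis was possible because the labels give no replicate numbers shared between groups. The depth of each library cannot be read from TPM, so limits on low genes are not given.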

Other observations

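The differences of greatest size were not those with the smallest p, and these genes were singled out after their values were seen. Only 3 of 9197 genes differed by more than 1 on the log2(TPM + 1) scale. NGFR, the low-affinity neurotrophin receptor, ranged from 0.0543 to 185 TPM in controls with a median of 0.531, and from 0.0521 to 26.5 TPM in drinkers with a median of 0.522. Its difference of −1.33 (SE 0.80, unadjusted p = 0.111) thus came from few animals, and it was −0.59 without Control 6. C3orf22 was at 0 to 22.8 TPM in controls (median 11.3), 5.93 to 29.5 in LD* (median 13.7) and 7.12 to 37.3 in HD* (median 20.8). Its difference of 1.04 (SE 0.41, unadjusted p = 0.0168) was 0.59 without Control 6. OBP2B, a lipocalin, ranged from 0 to 69.1 TPM in controls and from 0 to 156 TPM in drinkers, with medians of 0.714 and 0.607, and differed by 1.08 (SE 1.11).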
